A study of Homo sapiens with 6 samples.

Results

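The 10 mitochondrial fatty acid oxidation enzymes examined here were CPT1A, CPT2, ACADVL, ACADM, ACADS, HADHA, HADHB, HADH, ECI1 and ETFDH. They were chosen by name as the enzymes of the pathway, and all 10 were found among the 60668 rows of the gene table. MiaPaCa-2 cells, an established human pancreatic cancer line obtained from ATCC, were cultured for 48 h in low glucose (2.5 mM) or in control medium (25 mM), with 3 RNA-seq libraries per condition, described as independent biological replicates. Both conditions used the same parental line, with no gene knocked out and no other agent named in the labels, so every result below describes 1 cell line. The comparison asks how the transcripts of these cells differ when little glucose is supplied.

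Mitochondrial fatty acid oxidation begins when a fatty acid, activated to its acyl-CoA, is transferred to carnitine at the outer mitochondrial membrane. The acylcarnitine crosses into the matrix, is turned back into an acyl-CoA, and is then shortened in repeated rounds of dehydrogenation, hydration, a second dehydrogenation and thiolysis, each round releasing acetyl-CoA and reduced cofactors. The transfer to carnitine is the regulated entry step and is blocked by malonyl-CoA, the building block of fatty acid synthesis. Electrons from the acyl-CoA dehydrogenases pass through the electron transfer flavoprotein and its ubiquinone oxidoreductase to the respiratory chain.

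The control libraries held 9741183, 10126218 and 10190154 reads, and the low-glucose libraries 10841656 (replicate 1), 10595408 (replicate 2) and 13733477 reads. Libraries without a replicate number are named by their depth. Of the markers listed for pancreatic carcinoma cells, KRT8, KRT18, KRT19 and VIM were all read and EPCAM had at most 1 read in any library. VIM is a mesenchymal gene, so this list is not epithelial alone. Summed over the list, the level was 7523 to 8877 TPM in control and 6808 to 6993 TPM in low glucose. TPM gives the transcripts of a gene, corrected for its exon length, as a share of all transcripts in the library. The 3 keratins were lower and VIM higher in low glucose. VIM alone had a mean of 3540 TPM in control and 4518 TPM in low glucose. The fibroblast list summed to 73.2 to 79.9 TPM in control and 50.8 to 52.5 TPM in low glucose, nearly all from COL1A2, while DCN had no read and LUM at most 1. The acinar list did not exceed 6.40 TPM, with no read for PRSS1, CPA1, CELA3A or PNLIP, the leukocyte and endothelial list did not exceed 2.46 TPM, with no read for PTPRC or CD3E, and the islet list did not exceed 0.228 TPM, with no read for INS, GCG or SST. The part of these marker changes in the results below was not tested.

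In bulk RNA, fewer cells and less RNA per cell cannot be told apart. In low glucose 3 of the 10 enzymes were higher and none was lower at an adjusted p under 0.05 (limma on log2(normalized count + 1), two-sided, Benjamini-Hochberg adjustment over 21101 genes). As ratios of mean normalized counts, CPT1A rose 1.90-fold, ECI1 rose 1.56-fold and ACADVL rose 1.30-fold. The other 7 enzymes did not pass the test, and their log2 fold changes lay between -0.25 and 0.21. Across all tested genes 30.9% passed, 14.7% as higher and 16.2% as lower in low glucose. The median log2 fold change was 0.10 over the 10 enzymes and 0.05 over all tested genes. The conditions did not overlap for 6 of the 10 enzymes, compared with 43.9% of all tested genes. None of the 10 reached an absolute log2 fold change of 1, which 1392 of all tested genes did while passing the test.

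**Figure D1:**
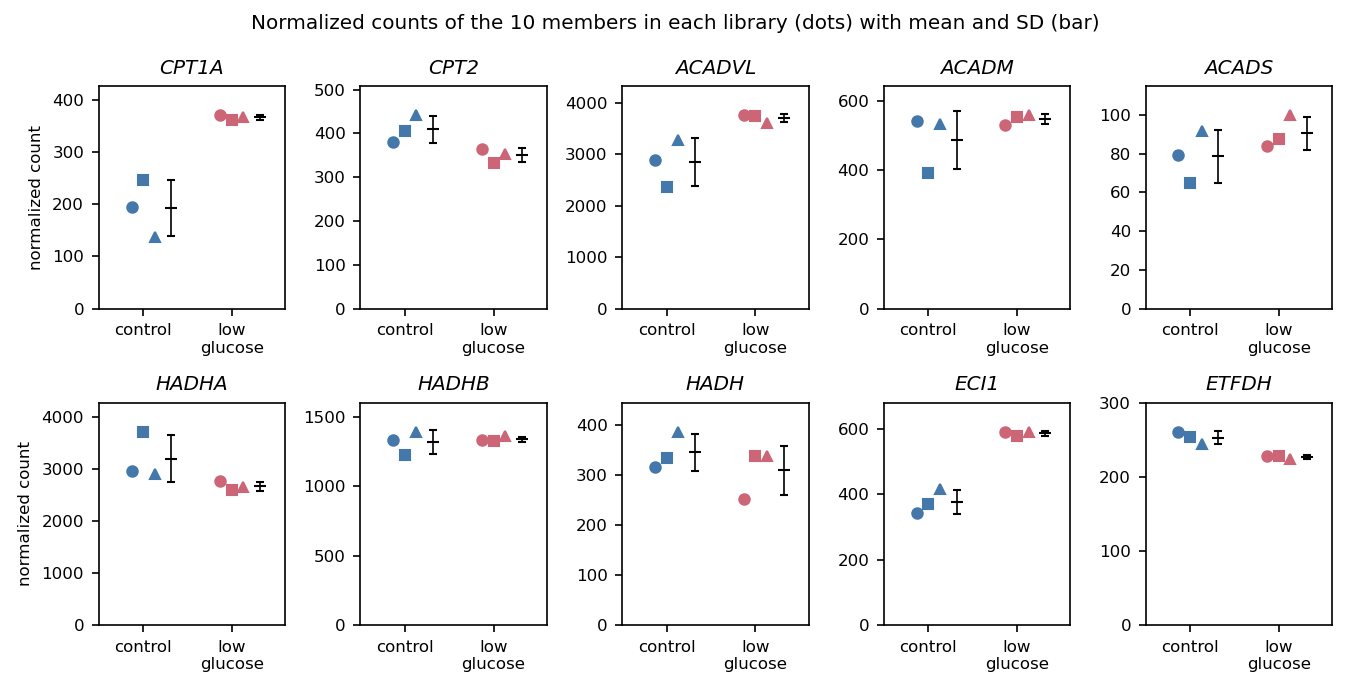
Normalized counts (vertical axes, each starting at 0) of the 10 enzymes in the 3 control (blue) and 3 low-glucose (red) libraries, with the mean and SD beside them in black. The low-glucose dots of CPT1A, ACADVL and ECI1 all lie above the control dots, those of CPT2, HADHA and ETFDH all lie below, and the other 4 enzymes overlap.

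The largest change among the 10 enzymes was that of CPT1A, at the start of the pathway. CPT1A (ENSG00000110090.13, hg38 chromosome 11, 68754620 to 68844410, minus strand) encodes the liver-type carnitine palmitoyltransferase of the outer mitochondrial membrane, the step that malonyl-CoA inhibits. Normalized counts were 193.9, 246.3 and 138.0 in the control libraries, in the order of depth given above, and 362.6, 371.4 and 366.7 in low-glucose replicate 1, replicate 2 and the library of 13733477 reads. Every low-glucose library exceeded every control library, and the spread within control was much wider than within low glucose. The mean went from 192.8 ± 54.2 to 366.9 ± 4.39 (SD, n = 3 each), a log2 fold change of 0.96 (SE 0.16, 95% interval 0.62 to 1.31, limma adjusted p = 3.66e-04). Of all tested genes, 10.6% had a higher log2 fold change. The call was kept whichever library was left out, with log2 fold changes of 0.74 to 1.16.

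CPT2 (ENSG00000157184.7, chromosome 1, 53196792 to 53214197, plus strand) encodes the inner membrane transferase that restores the acyl-CoA. Normalized counts were 380.0, 404.6 and 441.9 in control and 332.8, 363.5 and 353.8 in low glucose, in the same order of libraries. All low-glucose values lay below the control values, but the change of -0.22 (95% interval -0.43 to -0.02) did not pass after adjustment (limma adjusted p = 0.0939). The exons of CPT2 share 1151 bases with the long noncoding RNA ENSG00000236723 on the opposite strand, which had 160 to 265 reads and a log2 fold change of -0.22, and 99 bases with CZIB, which had a log2 fold change of 0.42. The libraries were strand-specific, but the strand setting used for counting was not given in the sources used here.

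The ratio of CPT1A to CPT2, taken in TPM so that gene length is accounted for, was 0.784, 0.935 and 0.480 in the control libraries. In low glucose it was 1.67 in replicate 1, 1.57 in replicate 2 and 1.59 in the library of 13733477 reads. The conditions did not overlap, with a mean ratio of 0.733 ± 0.232 in control and 1.61 ± 0.0548 in low glucose (SD, n = 3 each). With the longest transcript as length in place of all exons, the mean ratio was 0.413 in control and 0.909 in low glucose, so which of the genes is at the higher level in low glucose depends on the length used. This ratio and its other length were added after the values had been seen, and the ratio was not tested.

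Of the other 5 genes of the carnitine shuttle, none passed as higher and 1 as lower. The latter was SLC22A5, the plasma membrane carnitine transporter, with a log2 fold change of -0.44 (limma adjusted p = 0.0139). It did not pass once low-glucose replicate 1 or the library of 13733477 reads was dropped, with an adjusted p of up to 0.0848. The call was also lost with library size scaling without mitochondrially encoded genes (0.0543) and in a variance model without trend (0.0634). CPT1B, the muscle-type transferase, had only 4 to 16 reads per library and CPT1C, the brain-type form, 11 to 33, so CPT1A was by far the most read of the 3 CPT1 genes. SLC25A20, the carrier that exchanges acylcarnitine for carnitine across the inner membrane, had a log2 fold change of 0.25 (adjusted p = 0.421). CRAT, which acts on short acyl groups, had one of 0.18 (adjusted p = 0.121). CRAT passed as higher with library size scaling (adjusted p = 0.0224), also without mitochondrially encoded genes (0.0143), with quantile normalization (0.00336) and without the control library of 10126218 reads (0.00394).

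Of the very-long-, medium- and short-chain acyl-CoA dehydrogenases, ACADVL alone passed the test. ACADVL (ENSG00000072778.20, chromosome 17, 7217125 to 7225266, plus strand) catalyzes the first dehydrogenation of long acyl chains at the inner membrane. Its normalized counts were 2889, 2354 and 3285 in control and 3741, 3761 and 3613 in low glucose. The lowest low-glucose library was above the highest control library. The mean went from 2843 ± 467 to 3705 ± 79.9 (SD, n = 3 each), a log2 fold change of 0.40 (SE 0.10, 95% interval 0.18 to 0.61, limma adjusted p = 0.00834). The call was lost without low-glucose replicate 1 (adjusted p = 0.0563), without replicate 2 (0.0538) and in a variance model without trend (0.112). DLG4 overlaps 49 exonic bases of ACADVL on the opposite strand and had 144 to 319 reads and a log2 fold change of 0.41 (adjusted p = 0.0239), against 2112 to 4769 reads for ACADVL itself.

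ACADM (ENSG00000117054.13, chromosome 1, 75724431 to 75787575, plus strand), the medium-chain enzyme, had normalized counts of 541.5, 392.3 and 532.8 in control and 555.0, 531.5 and 559.9 in low glucose. The conditions overlapped, and the control library of 10126218 reads stood below the rest. The log2 fold change was 0.18 (95% interval -0.06 to 0.43, adjusted p = 0.254). ACADM shares 157 exonic bases on the same strand with RABGGTB, which had 824 to 2029 reads and was higher in low glucose by 0.35 on the log2 scale (adjusted p = 0.0353), and 1354 bases on the opposite strand with the pseudogene DLSTP1, which had 3 to 14 reads.

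ACADS (ENSG00000122971.9, chromosome 12, 120725774 to 120740008, plus strand), the short-chain enzyme, was the least read of the 10, with 58 to 132 reads per library. Its normalized counts were 79.6, 64.6 and 92.0 in control and 87.5, 84.0 and 100.02 in low glucose, which overlap. The log2 fold change of 0.21 had a wide interval of -0.16 to 0.58 (adjusted p = 0.396).

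Along chain length the point estimates were 0.40 for ACADVL, 0.18 for ACADM and 0.21 for ACADS, with overlapping intervals. The ratio of ACADVL to ACADM in TPM, also added after the values had been seen, was 15.2, 17.1 and 17.6 in control and 19.3, 20.2 and 18.4 in low glucose, which did not overlap. Among the 8 other acyl-CoA dehydrogenases, 7 could be tested, and ACADL, the long-chain enzyme, had at most 1 read in any library. ACAD11, which acts on long chains, rose by a log2 fold change of 0.83 (limma adjusted p = 0.00221). ACAD9, which has a main role in assembly of respiratory complex I, fell by 0.35 on the log2 scale (adjusted p = 0.00456), a call lost with quantile normalization (0.0633) and in a variance model without trend (0.0552). ACADSB, of isoleucine breakdown, fell by 0.29 on the log2 scale (adjusted p = 0.0254). Dropping any 1 low-glucose library or the 9741183-read control ended the ACADSB call, with an adjusted p of up to 0.106. That call was lost too with library size scaling (0.103), also without mitochondrially encoded genes (0.153), in a variance model without trend (0.0707) and with DESeq2 (0.0566).

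HADHA and HADHB encode the α and β subunits of the mitochondrial trifunctional protein, which carries out the last 3 steps of a round on long chains. HADHA (ENSG00000084754.12, chromosome 2, 26190635 to 26244672, minus strand) provides the hydratase and long-chain hydroxyacyl-CoA dehydrogenase activities, and HADHB (ENSG00000138029.14, chromosome 2, 26243170 to 26290465, plus strand) the thiolase. The annotated canonical transcripts begin head to head, at 26244632 for HADHA and 26244939 for HADHB, with 306 bases between them. A part of this interval nearer to the HADHA start, chr2:26244673-26244747, is printed here because it lies between both start sites and is covered by no annotated exon. It is given on the HADHA strand (RefSeq sequence, GRCh38.p14) and holds none of the motifs searched, so it has no capitals.
HADHA-HADHB interval: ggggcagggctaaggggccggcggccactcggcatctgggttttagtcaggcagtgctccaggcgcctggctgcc

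Although the start sites are adjacent, the point estimates of the subunits differed, and the difference between them was not tested. HADHA normalized counts were 2976, 3727 and 2909 in control and 2592, 2767 and 2653 in low glucose, so that every low-glucose library was below every control library. The log2 fold change of -0.25 (SE 0.09, 95% interval -0.45 to -0.06) had a limma adjusted p of 0.0502, just short of the threshold. It passed with a minimum mean of 5 (adjusted p = 0.0458), with at least 10 counts in every library (0.0439), with DESeq2 (0.0371) and without the control library of 10190154 reads (0.0101). After quantile normalization the adjusted p was 0.511. Without the control library of 10126218 reads, which held the highest HADHA value, the log2 fold change was -0.14. The HADHA pseudogenes HADHAP1 and HADHAP2 had at most 3 reads and no read, respectively.

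HADHB had normalized counts of 1337, 1228 and 1396 in control and 1329, 1332 and 1362 in low glucose, all low-glucose values lying inside the control range. The log2 fold change was 0.02 with an interval of -0.14 to 0.19 (limma adjusted p = 0.848), and it took the other sign, -0.03, without the control library of 10126218 reads. The HADHB pseudogene HADHBP1 had no read.

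The ratio of HADHA to HADHB in TPM was 2.20, 2.997 and 2.06 in control and 1.93, 2.05 and 1.92 in low glucose. The conditions did not overlap, but the lowest control ratio and the highest low-glucose ratio nearly met. The mean ratio was 2.42 ± 0.507 in control and 1.97 ± 0.0732 in low glucose (SD, n = 3 each), a difference of -0.45. One library carried much of it, since the difference was -0.16 without the control library of 10126218 reads. The ratio is given as a description, with no test.

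**Figure D2:**
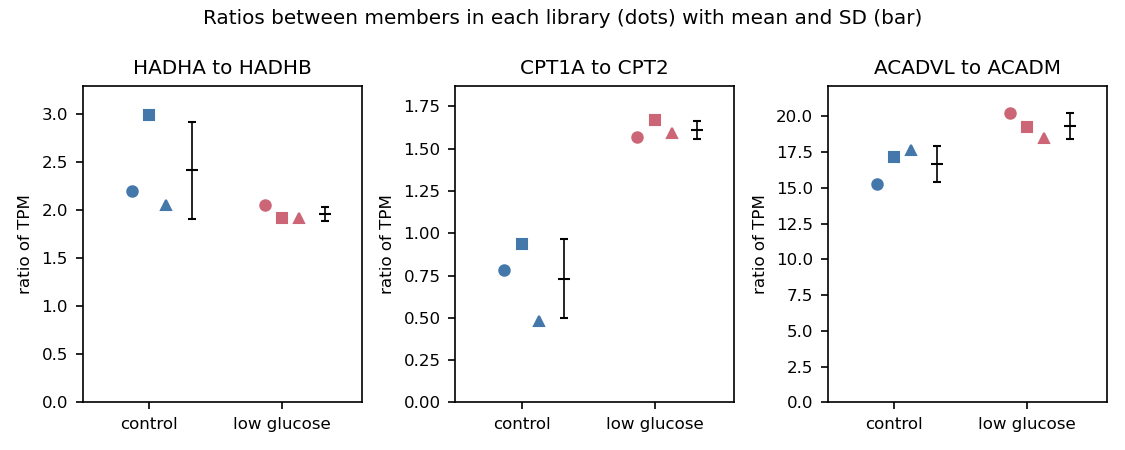
Ratios of levels in TPM (vertical axes, each starting at 0) between pairs of enzymes in each control (blue) and low-glucose (red) library, with the mean and SD in black. With all exons as length, as plotted, the CPT1A to CPT2 ratio is below 1 in the control libraries and above 1 in the low-glucose libraries (0.909 on average with the longest transcript as length), and the high HADHA to HADHB ratio of 2.997 is in the control library of 10126218 reads.

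HADH (ENSG00000138796.16, chromosome 4, 107989714 to 108035241, plus strand) encodes the medium- and short-chain hydroxyacyl-CoA dehydrogenase of the matrix. Its normalized counts were 315.0, 333.3 and 386.2 in control and 336.7, 251.9 and 337.9 in low glucose. The conditions overlapped, and low-glucose replicate 2 was the lowest library of all. HADH was the only one of the 10 enzymes whose coefficient of variation was larger in low glucose (16.0%) than in control (10.7%). The log2 fold change was -0.17 (95% interval -0.44 to 0.10, adjusted p = 0.350).

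ECI1 (ENSG00000167969.13, chromosome 16, 2239402 to 2252300, minus strand) encodes the matrix enoyl-CoA isomerase that moves a double bond of unsaturated acyl chains into the position the next step can use. Normalized counts were 341.9, 371.2 and 415.1 in control and 579.1, 591.7 and 592.5 in low glucose, with a wide gap between the conditions. The mean went from 376.1 ± 36.9 to 587.8 ± 7.54 (SD, n = 3 each), a log2 fold change of 0.65 (SE 0.09, 95% interval 0.45 to 0.85, limma adjusted p = 1.18e-04). Its adjusted p was the smallest of the 10 enzymes. The call was kept whichever library was left out, with log2 fold changes of 0.58 to 0.72, and 18.5% of tested genes had a higher value.

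None of the other 5 matrix enzymes passed as higher. ECI2, a second enoyl-CoA isomerase, found in mitochondria and peroxisomes, fell by 0.29 on the log2 scale (limma adjusted p = 0.0242). With 1 library left out, this call held only without the control library of 10126218 reads. It failed without any 1 of the other 5 libraries, with an adjusted p of up to 0.127. The ECI2 call was also lost with library size scaling (0.105), also without mitochondrially encoded genes (0.148), with quantile normalization (0.0877) and in a variance model without trend (0.112). ECHS1, the short-chain hydratase (log2 fold change -0.21, adjusted p = 0.0600), and ACAA2, the matrix thiolase (-0.23, 0.0504), had all low-glucose values below control without passing. ECHS1 passed without the control library of 10126218 reads (adjusted p = 0.00615), and ACAA2 passed without that library (0.0488) or without the control library of 10190154 reads (0.0489). With at least 10 counts in every library both ECHS1 (0.0440) and ACAA2 (0.0346) passed. ACAA2 also passed with a minimum mean of 5 (0.0403) or a pseudocount of 0.1 (0.0475). With library size scaling neither ECHS1 (0.262) nor ACAA2 (0.195) passed. HSD17B10, a dehydrogenase of branched and short chains, had a log2 fold change of -0.21 (adjusted p = 0.167), or an adjusted p of 0.00322 without the control library of 10126218 reads. DECR1, which reduces double bonds of polyunsaturated chains, had one of 0.20 (adjusted p = 0.317).

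ETFDH (ENSG00000171503.12, chromosome 4, 158671968 to 158710742, plus strand) encodes the oxidoreductase that hands electrons from the electron transfer flavoprotein to ubiquinone. Its normalized counts were 261.2, 254.1 and 243.9 in control and 228.0, 228.2 and 223.5 in low glucose. The values within each condition lay close together and did not overlap between conditions, yet the log2 fold change of -0.16 (95% interval -0.37 to 0.06) did not pass (limma adjusted p = 0.258). ETFDH shares 1427 exonic bases with PPID on the opposite strand (494 to 748 reads, log2 fold change -0.14) and 259 bases with C4orf46 (203 to 296 reads, log2 fold change -0.59, adjusted p = 8.40e-04). The flavoprotein's own subunits did not pass either, with log2 fold changes of -0.23 for ETFA (adjusted p = 0.0991) and -0.04 for ETFB (adjusted p = 0.833). ETFA passed without the control library of 10126218 reads, with an adjusted p of 6.63e-04.

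**Figure D3:**
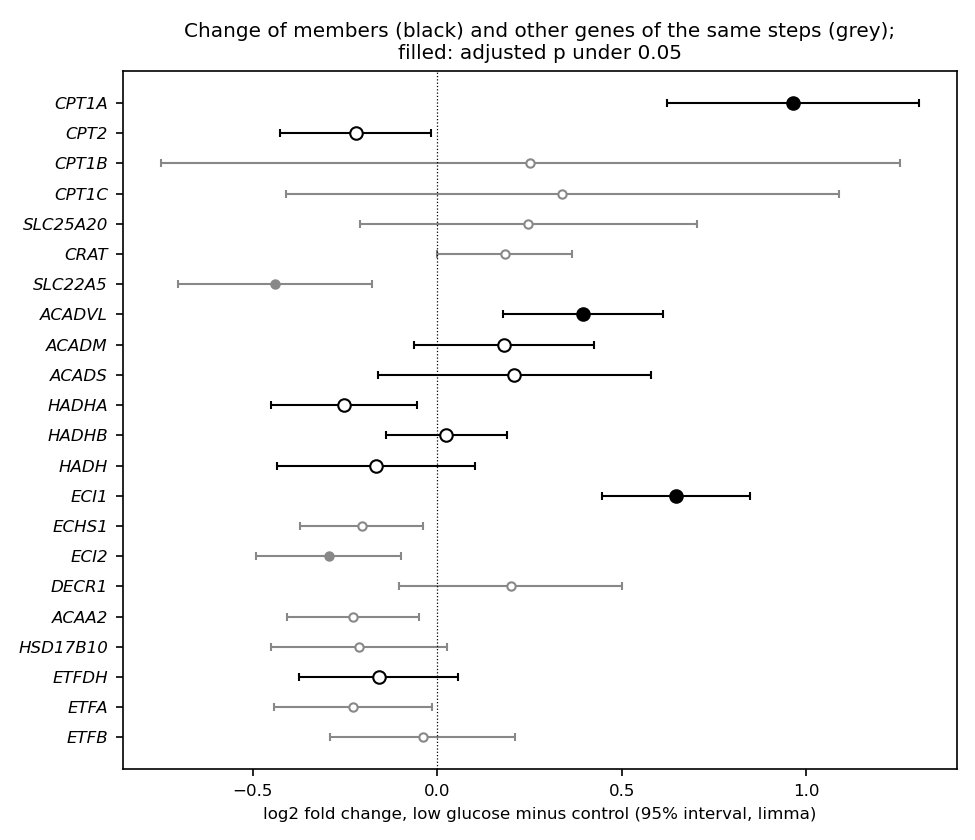
Log2 fold change of low glucose minus control (horizontal axis) with its 95% interval from limma, for the 10 enzymes (black) and other genes of the same steps (grey), where filled symbols have an adjusted p under 0.05. CPT1A at 0.96, ECI1 at 0.65 and ACADVL at 0.40 are filled on the higher side, and SLC22A5 at -0.44 and ECI2 at -0.29 on the lower side.

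The level of the enzymes differed widely within each condition. In control, HADHA was highest at 223 ± 30.5 TPM, followed by ACADVL at 178 ± 29.0, HADHB at 93.1 ± 6.21 and ECI1 at 35.4 ± 3.004 (SD, n = 3). CPT2 (12.2), ACADM (10.7), ACADS (9.10), CPT1A (8.85), HADH (8.07) and ETFDH (3.20 TPM) were lower. HADHA and ACADVL overlapped between control libraries, as did each neighbouring pair from CPT2 down to HADH. In low glucose ACADVL (222 ± 3.28 TPM) was above HADHA (178 ± 4.38) in every library, and CPT1A at 16.1 ± 0.134 TPM had moved from the eighth place to the fifth. Only the neighbours ACADM and ACADS, and ACADS and CPT2, overlapped in low glucose. These levels divide by all annotated exons of a gene. With the longest transcript as length, ACADVL (274 TPM) stood above HADHA (236) in control already, and CPT1A (8.37) was the lowest of the 10, beside ETFDH (8.48). With that length CPT1A in low glucose (15.5 TPM) was below ACADM (19.98) and CPT2 (17.1), so the fifth place depends on the length used.

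**Figure D4:**
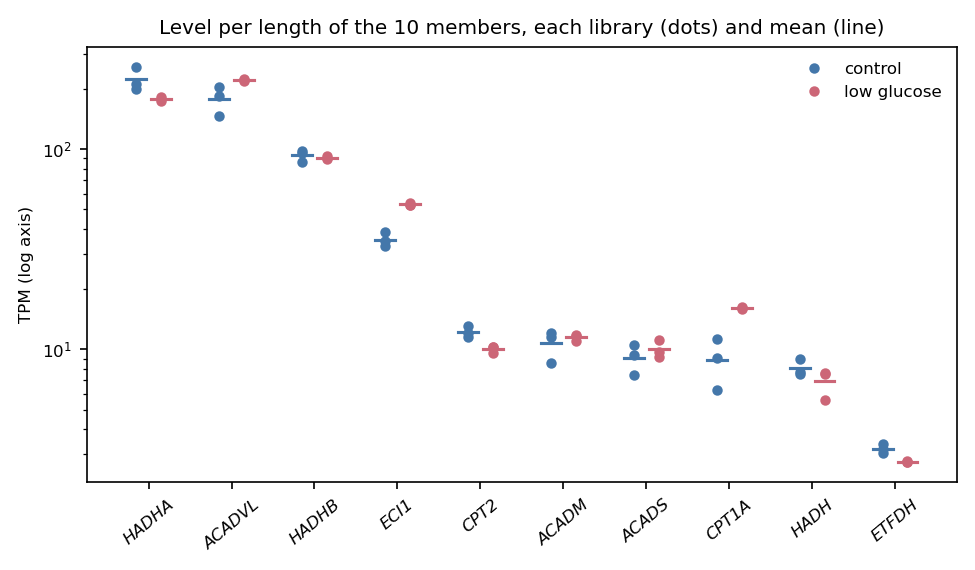
Level per length in TPM (vertical log axis) of the 10 enzymes in each control (blue) and low-glucose (red) library, with lines at the means and genes ordered by their control mean. HADHA, ACADVL and HADHB lie at 85.99 TPM or higher in the control libraries, and CPT1A is the lower-level gene whose low-glucose dots stand farthest above its control dots.

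Summed over the 10 enzymes, the level was 577, 575 and 593 TPM in control and 598, 601 and 604 TPM in low glucose. The conditions did not overlap, but the sum differed little, with means of 581 ± 10.1 and 601 ± 2.67 TPM (SD, n = 3 each), and HADHA, ACADVL and HADHB made up most of it. This sum was taken with all exons as length only, and the size of its difference depends on the length used. With the longest transcript as length, ACADVL went from 274 to 349 TPM, HADHA from 236 to 192 and HADHB from 104 to 103. The control libraries were also more spread than the low-glucose libraries. The coefficient of variation was larger in control for 9 of the 10 enzymes and for 14418 of the 21101 tested genes, with medians of 12.5% in control and 2.47% in low glucose for the enzymes, and 17.0% and 10.8% for all tested genes. The control library of 10190154 reads held the highest or lowest control value of 9 of the 10 enzymes, and that of 10126218 reads of 6. The latter held the highest control value of CPT1A and HADHA and the lowest of ACADVL, ACADM, ACADS and HADHB.

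RefSeq promoter windows, from 250 bases before a start site to 50 after it, were found for 9 of the 10 enzymes, in 11 windows, with ETFDH unmatched. The GC box (GGGCGG on either strand), a binding motif of Sp-family factors, was present in 8 of the 11 windows, 1 for each of ACADM, ACADS, ACADVL, CPT2, ECI1, HADH, HADHA and HADHB, compared with 44.95% of all 35116 windows. The match 248 bases upstream of HADHA and the match 64 bases upstream of HADHB are the same bases. A CCAAT box (CCAAT) was present in 1 of the 11, that of HADH, compared with 34.6% of all windows. The motifs of the estrogen-related receptors (TNAAGGTCA), NRF1 (GCGCATGC), CREB (TGACGTCA) and ATF4 (TGATGNAA) were in none of the 11, and in 0.951%, 3.05%, 1.85% and 3.62% of all windows. The windows without a GC box belong to start sites away from the canonical one, by 14722 bases for HADH, 2813 for ACADVL and 2361 for CPT1A. For CPT1A this was the only window, so its main promoter was not searched. Parts of upstream sequence free of annotated exons are printed for ECI1, which rose, and CPT2, which did not pass the test, both on the strand of the gene with GC boxes in capitals (RefSeq, GRCh38.p14). They are chr16:2251592-2251684 on the minus strand and chr1:53196574-53196791 on the plus strand.
ECI1 upstream: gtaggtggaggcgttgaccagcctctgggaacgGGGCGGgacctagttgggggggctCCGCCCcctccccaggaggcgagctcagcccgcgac
CPT2 upstream: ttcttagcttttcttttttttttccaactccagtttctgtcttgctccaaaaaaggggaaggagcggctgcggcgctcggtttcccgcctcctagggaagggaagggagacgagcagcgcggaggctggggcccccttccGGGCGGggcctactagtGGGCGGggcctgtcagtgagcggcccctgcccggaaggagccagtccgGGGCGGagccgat
All windows at a canonical start site held a GC box, and any link of this motif to the changes was not tested.

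Around the 10 enzymes, 84 genes of 12 lists were examined, and 75 could be tested. Of these 12 rose, 13 fell and 50 did not pass, with a median log2 fold change of 0.07. Across all tested genes 14.7% passed as higher and 16.2% as lower. Library size scaling gave 18 higher and 9 lower, and 18 and 7 without mitochondrially encoded genes, so the split depends on the scaling. Of the 25 calls, 11 were kept whichever library was left out, 5 higher and 6 lower. Among the genes that take up and activate fatty acids, ACSL1 and ACSL3, which attach CoA to long chains, fell by 0.47 and 0.44 on the log2 scale (limma adjusted p = 5.90e-04 and 5.23e-04) and kept the call whichever library was left out. ACSL4, which prefers arachidonate, fell by 0.41 on the log2 scale, and it did not pass once low-glucose replicate 1 or 2 was dropped (adjusted p of up to 0.0967). Library size scaling without mitochondrially encoded genes (0.0505) and a variance model without trend (0.124) also ended the ACSL4 call. Named after their values were seen, FABP5, a fatty acid binding protein, also fell (-0.38), and the transport proteins SLC27A1 (0.40) and SLC27A5 (0.51) rose. Dropping low-glucose replicate 1 or 2 ended each of these calls. FABP5 and SLC27A5 also failed once the third low-glucose or the 10190154-read control library was dropped, and FABP5 once that of 10126218 reads was. The adjusted p reached 0.191 for FABP5, 0.0681 for SLC27A1 and 0.112 for SLC27A5. CD36, a fatty acid receptor, had no read.

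Outside the mitochondrial spiral, changes went both ways. In the peroxisome, ABCD3, an acyl-CoA importer, fell by 0.58 on the log2 scale (limma adjusted p = 2.85e-04), and the other 12 tested genes held 1 call, EHHADH, a bifunctional enzyme (0.45, adjusted p = 0.0300). Dropping any 1 low-glucose library or the 10190154-read control ended the EHHADH call, with an adjusted p of up to 0.121. On lipid droplets, PLIN3, a coat protein, fell by 0.76 on the log2 scale (adjusted p = 8.10e-06), while the lipases LIPE (1.02, 0.0171) and MGLL (1.09, 0.0345) rose from 7 to 19 reads in control to 23 to 38 reads in low glucose. Dropping low-glucose replicate 1 or 2 ended the LIPE call (up to 0.0820), and the MGLL call without any library but the control library of 10126218 reads (up to 0.133). None of the 4 genes of odd-chain oxidation passed.

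Of ketone body metabolism, BDH1, which interconverts acetoacetate and hydroxybutyrate, rose by 0.31 on the log2 scale (limma adjusted p = 0.0248), a call lost without any 1 low-glucose library (up to 0.119). ACACA, which makes malonyl-CoA, fell by 0.39 on the log2 scale (adjusted p = 0.00948), and it did not pass once either the 9741183-read control or the 13733477-read low-glucose library was dropped (up to 0.0770). The other 4 genes of malonyl-CoA control did not pass.

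Of the transcriptional regulators of the pathway, 7 of 9 could be tested. ESRRA, the estrogen-related receptor α, rose from 775.8, 759.0 and 826.0 to 1157, 1122 and 1084 normalized counts, a log2 fold change of 0.51 (limma adjusted p = 1.77e-04). PPARG, a lipid-activated receptor, rose by 0.84 (adjusted p = 0.00692), and RXRA, the partner of the PPAR receptors, fell by 0.38 on the log2 scale (adjusted p = 0.00585, or 0.0758 in a variance model without trend). Named after their values were seen, PPARA rose by 0.51 (adjusted p = 0.0208) and the coactivator PPARGC1B fell by 0.47 on the log2 scale (adjusted p = 0.0294), and dropping any 1 low-glucose library or the 9741183-read control ended both calls, as dropping the 10190154-read control did for PPARA (up to 0.135 and 0.147). PPARGC1A, the better known coactivator, had no read in any library. Of the 4 tested PPAR targets outside the pathway, FGF21, a secreted hormone also named after its values were seen, passed as higher, with 0 to 2 reads in the control libraries and 10 to 18 in the low-glucose libraries.

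**Figure D5:**
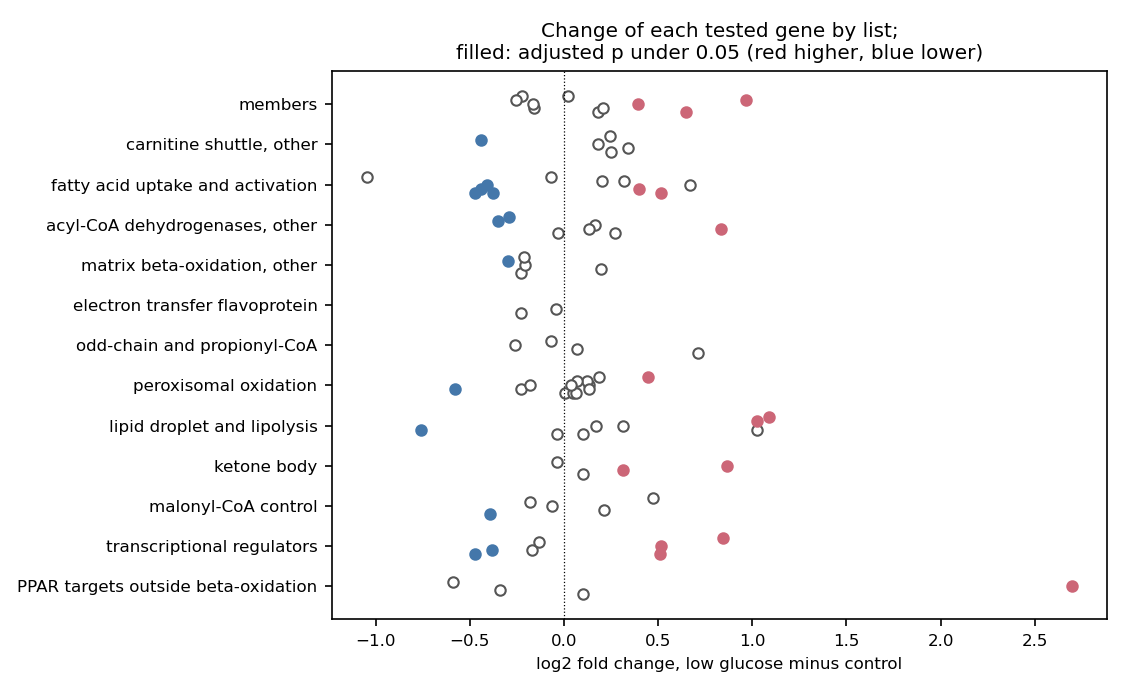
Log2 fold change of low glucose minus control (horizontal axis) of each tested gene in the 10 enzymes, labelled members, and the 12 lists around them, where filled dots have an adjusted p under 0.05 (red higher, blue lower) and open dots do not. The enzymes hold 3 red dots and no blue dot, and the 75 other genes hold 12 red and 13 blue dots. Of all tested genes, 14.7% passed as higher and 16.2% as lower. The dot farthest to the right is FGF21, which had at most 2 reads in a control library.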

How the data were processed

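Total RNA of MiaPaCa-2 cells was sequenced in 6 libraries. The submitters' processing notes list CASAVA, FastQC, Trim Galore, STAR 2.7.0e, DESeq2 and hg38. RSEM is also among the software named by the authors, but which tool made the counts, its strand setting and its annotation were not given in the sources used here. What the authors deposited is a normalized signal, gene counts divided by 1 size factor per library. In every library 100% of values were whole multiples of a step (tolerance 0.02 reads), so reads could be recovered. Identifiers matched the annotation for 99.5% of 60668 rows, and 45 pseudoautosomal copies with 1 read were left out.

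Only low-glucose replicates 1 and 2 have a column named in the labels. The remaining 4 columns were assigned to conditions by the 2 runs of column names, and the control concentration comes from the design text, since the treatment text repeats the low-glucose concentration. Replicates within a condition differed beyond counting noise, so none was merged. The chi-square per gene was 1.86 to 2.76 between low-glucose libraries and 4.35 to 17.4 between control libraries. The largest values, 8.08 and 17.4, involved the control library of 10126218 reads.

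Genes with a mean of at least 1 were tested by limma 3.58.1 in R 4.3.3 on log2(value + 1), with trend, Benjamini-Hochberg adjustment and a threshold of 0.05. Fold changes on this scale understate those of low genes. TPM was computed from recovered reads and Gencode v44 exon lengths. Alternatives, including edgeR 4.0.16 and DESeq2 1.42.0 on the recovered reads, are in the closing section.

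The members and lists were chosen with earlier results of these data known. The genes named are the members, up to 3 genes per list by smallest adjusted p (past 0.05, mean of at least 10), every gene of the carnitine shuttle, electron transfer flavoprotein and matrix lists, and genes or pseudogenes sharing sequence with a member. Another 6 genes were named because a count of 5 or fewer included them. Some genes chosen by this rule are not reported here.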

Additional observations from a re-analysis of the deposited data

How the results depend on the processing

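The calls of CPT1A and ECI1 held under all 11 alternatives of scaling, filter, pseudocount, variance model and tool and with each library left out. ECI2, ACADSB and FABP5 kept theirs in 7, EHHADH, SLC27A5 and PPARGC1B in 8, and SLC22A5, ACSL4, ACAD9 and ACACA in 9. LIPE, BDH1, PPARA and RXRA kept theirs in 10, and MGLL in 6 of the 10 alternatives that tested it. A variance model without trend called 2 of the 10 enzymes, 11 genes of the surrounding lists and 4090 genes in all, compared with 3, 25 and 6528. An added criterion of an absolute log2 fold change of 1 left 0, 3 and 1392. With 1 library left out, 2 to 4 enzymes, 12 to 30 list genes and 4298 to 7173 genes in all were called, and the HADHA to HADHB ratio differed by -0.63 to -0.16. The fewest, 12, 13 and 14 list genes, came without low-glucose replicate 1, replicate 2 and the library of 13733477 reads, and 4298 without replicate 1. The direction turned for HADHB with a library left out (-0.027 to 0.065), CPT1B (-0.063 with quantile normalization and -0.23 to 0.61 with a library left out), ECHS1 (0.017 with quantile normalization) and ETFB (0.041 with library size scaling, 0.068 with library size without mitochondrially encoded genes, -0.13 to 0.026 with a library left out), none of which was called. The cause was not tested.

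Library size scaling gave 3930 higher and 2645 lower calls, and without mitochondrially encoded genes 4218 and 2386, compared with 3111 and 3417. The latter moved the median log2 fold change of all genes from 0.05 to 0.15 and that of the enzymes from 0.10 to 0.21. With the longest transcript as length, TPM of CPT2, ACADVL, ACADM, HADHB, HADH, ECI1 and ETFDH moved beyond the library spread in both conditions. HADHA (178 to 192 TPM) and CPT1A (16.1 to 15.5 TPM) moved beyond that spread in low glucose only. No paired analysis was possible because control columns lack replicate numbers in the labels. Depth limits the low genes: CPT1B, CPT1C, LIPE and MGLL had at most 38 reads in a library and wide intervals.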
